A study of Mus musculus with 16 samples.

Results

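Midbrain dopamine neurons are named here by 7 genes, Th, Slc6a3, Pitx3, En1, Foxa1, Aldh1a1 and Drd2, which were found by symbol among the 38924 genes of 16 count tables. All 7 were present in the tables and all 7 passed the filter on low counts, which kept 18350 genes. The tables hold mRNA sequencing reads per gene from punches of mouse brain whose region label is the ventral posterolateral nucleus of the thalamus, which passes touch and pain signals on to the cortex. Each library was a pool of 4 punches of 12 gauge from 2 mice, so a value belongs to a pool and not to 1 animal. The 4 groups of 4 libraries were wild type (WT) naive mice (libraries 1 to 4), naive mice labelled RGS4KO (libraries 5 to 8), WT mice labelled CFA (libraries 9 to 12) and CFA mice labelled RGS4KO (libraries 13 to 16). The labels do not spell out CFA, in pain studies usually complete Freund's adjuvant, which inflames the injected tissue. Rgs4 encodes a regulator that turns off signalling by G protein-coupled receptors. The series text describes floxed Rgs4 mice and an adeno-associated virus that carries Cre, while the labels name only a KO genotype. Neither gives the promoter that drives Cre, the age of the mice or what the WT mice received. Levels are given as CPM, read counts scaled to a common library total with TMM factors. The targeted gene Rgs4 had a mean of 80.9 CPM (SD 3.66) in the WT naive group, 81.3 CPM (SD 2.74) in the naive group labelled KO, 89.3 CPM (SD 6.66) in the WT CFA group and 84.1 CPM (SD 5.5) in the CFA group labelled KO, with n = 4 each. The genotype fold of Rgs4 was 1.01 (95% interval 0.93 to 1.08) in naive libraries and 0.939 (0.871 to 1.01; edgeR adjusted p = 0.519) after CFA. Because Rgs4 was not called lower in either comparison, these are written as libraries labelled KO throughout.

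Dopamine neurons of the midbrain lie in the substantia nigra and the ventral tegmental area, with smaller groups in the periaqueductal grey and dorsal raphe. They make dopamine with tyrosine hydroxylase (Th) and aromatic amino acid decarboxylase (Ddc), load it into vesicles with the monoamine transporter Slc18a2, and take it back up with the dopamine transporter Slc6a3. The transcription factors Foxa1, Foxa2, Lmx1a, Lmx1b, Nr4a2, En1 and Pitx3 specify and maintain them. Dopamine neuron cell bodies are not a known part of the ventral posterolateral thalamus, and serotonin neurons, which share Ddc, Gch1, Slc18a2, Lmx1b and En1 with dopamine neurons, lie in the raphe nuclei of the brainstem.

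Total counts ran from 18.1 M to 78.8 M per library. In 3 libraries Tph2, the serotonin neuron form of tryptophan hydroxylase, stood below the rest, at 132 CPM in library 5, 101 CPM in library 8 and 58.9 CPM in library 10, against at least 254 CPM in the other 13. In libraries 2 and 4, both WT naive, Dbh, the enzyme that turns dopamine into noradrenaline, was at 5.55 and 2.28 CPM, against 0 to 0.998 CPM in the other 14. Results below are also given without these libraries where that changes them. In pooled punches, fewer dopamine neurons and less of the RNA in each of them cannot be told apart.

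The start regions of 3 of the genes are printed because Th and Slc6a3 moved together across libraries and En1 moved with Tph2. The sequences are RefSeq promoter windows of assembly GRCm38.p6, cut where exons begin, read 5′ to 3′ on the strand of the gene. They are chr7:142900015-142900245 on the minus strand for Th, chr13:73536497-73536746 on the plus strand for Slc6a3, and chr1:120602237-120602417 on the plus strand for En1. Capitals mark matches to the searched motifs.
Th: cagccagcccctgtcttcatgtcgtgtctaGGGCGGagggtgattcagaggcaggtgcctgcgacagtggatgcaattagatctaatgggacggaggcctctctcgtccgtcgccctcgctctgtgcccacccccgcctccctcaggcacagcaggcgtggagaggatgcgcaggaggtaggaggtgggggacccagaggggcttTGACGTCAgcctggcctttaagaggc
Slc6a3: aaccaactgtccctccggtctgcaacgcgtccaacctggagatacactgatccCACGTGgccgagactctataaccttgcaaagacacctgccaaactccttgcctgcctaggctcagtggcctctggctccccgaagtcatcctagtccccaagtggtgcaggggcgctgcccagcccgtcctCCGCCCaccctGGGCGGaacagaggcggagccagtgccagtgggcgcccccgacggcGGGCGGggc
En1: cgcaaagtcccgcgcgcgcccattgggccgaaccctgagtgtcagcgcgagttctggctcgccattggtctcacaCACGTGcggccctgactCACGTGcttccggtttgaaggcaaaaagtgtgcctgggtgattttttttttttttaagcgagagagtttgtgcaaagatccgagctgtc
The motifs searched on both strands were the cAMP response element TGACGTCA, the GC box GGGCGG, the E-box CACGTG, the TATA box TATAAA, the Nr4a-type element AAAGGTCA, the bicoid-type site TAATCC and the forkhead sites TGTTTAC and TATTTAC. None of them overlapped another within the printed windows. Distances are counted from the RefSeq start, which is base 142899995 for Th, 73536747 for Slc6a3 and 120602487 for En1; for Th and En1 it lies inside the GENCODE gene, past the end of the printed window. The Th window held a cAMP response element starting 45 bases upstream of that start and a GC box 220 bases upstream. The Slc6a3 window held GC boxes 66, 55 and 9 bases upstream and an E-box 197 bases upstream, and the En1 window held E-boxes 175 and 158 bases upstream. Among 32851 RefSeq promoter windows of 250 bases, 1.55% held the cAMP response element, 32.7% the GC box and 6.02% the E-box. The Th and Slc6a3 windows shared only the GC box, and the En1 window shared the E-box with that of Slc6a3. These matches are descriptions of letters and not of bound sites.

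Th (ENSMUSG00000000214.4; mm10 chromosome 7, 142892752 to 142931128, minus strand) encodes tyrosine hydroxylase, the rate-limiting enzyme of dopamine synthesis, and was detected in every library. In WT naive libraries 1 to 4 it was at 30.5, 28.4, 31.9 and 22 CPM. In naive libraries 5 to 8, labelled KO, it was at 21.3, 30.8, 31.7 and 19 CPM. After CFA the WT libraries 9 to 12 stood at 38.4, 21.3, 27.9 and 29.9 CPM, and libraries 13 to 16, labelled KO, at 25.4, 25.5, 19.6 and 29.7 CPM. Each group therefore held at least 1 library near the bottom of the whole range of 19 to 38.4 CPM, and all 4 groups overlapped. The counts behind these values were 481 to 1995 reads.

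Slc6a3 (ENSMUSG00000021609.6; chromosome 13, 73536747 to 73578672, plus strand) encodes the dopamine transporter, the most selective marker of dopamine neurons among the 7 genes. It was at 8.37, 5.87, 8.11 and 5.17 CPM in WT naive libraries 1 to 4. In naive libraries 5 to 8, labelled KO, it was at 5.51, 8.09, 7.12 and 3.97 CPM. The WT CFA libraries 9 to 12 stood at 9.01, 5.34, 7.73 and 7.16 CPM, and the CFA libraries 13 to 16, labelled KO, at 5.59, 5.85, 4.12 and 6.46 CPM. The highest library was library 9 and the 2 lowest were 8 and 15, the same 3 libraries as for Th. Slc6a3 reads per Th read varied only from 0.207 to 0.278 over the 16 libraries, a 1.34-fold range, where the level of Th itself had a 2.02-fold range.

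Noradrenaline neurons also make Th but not Slc6a3. Their listed markers summed to 0.273 to 11.4 CPM in WT naive libraries, 0.139 to 1.93 CPM in naive libraries labelled KO, 0.99 to 2.66 CPM in WT CFA libraries and 0.612 to 1.5 CPM in CFA libraries labelled KO. Dbh was listed at 0 in libraries 1 and 8. Library 2, with the highest Dbh, had 0.207 Slc6a3 reads per Th read, the lowest of the 16, and the part of noradrenaline neurons in its Th level was not tested. Libraries 8 and 15, with Dbh at 0 and 0.0816 CPM, had nearly the same ratio, at 0.209 and 0.21. Library 4, with the second highest Dbh, had 0.235.

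Drd2 (ENSMUSG00000032259.7; chromosome 9, 49340627 to 49408177, plus strand) encodes the dopamine D2 receptor, which dopamine neurons carry as an autoreceptor and other neurons also make. Its level was 20.1 to 24 CPM in WT naive libraries, 19.2 to 22.9 CPM in naive libraries labelled KO, 20.6 to 24.1 CPM in WT CFA libraries and 19.8 to 22.3 CPM in CFA libraries labelled KO. This was the narrowest range of the 7 genes, 1.25-fold from lowest to highest. Library 9 was again the highest and library 8 the lowest.

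Aldh1a1 (ENSMUSG00000053279.6; chromosome 19, 20492715 to 20643465, plus strand) encodes a retinaldehyde dehydrogenase that marks a ventral set of nigral dopamine neurons and is also made by other cells. It was the most abundant of the 7. WT naive libraries 1 to 4 had 122, 94.5, 94.5 and 110 CPM, and naive libraries 5 to 8, labelled KO, had 118, 140, 114 and 153 CPM. The WT CFA libraries 9 to 12 had 134, 136, 128 and 144 CPM, all above the 4 WT naive libraries. CFA libraries 13 to 16, labelled KO, stood at 139, 141, 102 and 112 CPM and overlapped every other group. Library 8, the lowest for Th, Slc6a3 and Drd2, was the highest for Aldh1a1. Aldh1a1 overlaps the noncoding C730002L08Rik and the pseudogene Gm6684 on the other strand, and the kit does not mark strand, so reads in those stretches are uncertain.

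Among the transcription factors, En1 (ENSMUSG00000058665.7; chromosome 1, 120602418 to 120607992, plus strand) varied most. This homeobox factor patterns the midbrain and anterior hindbrain and stays on in dopamine and serotonin neurons. WT naive libraries 1 to 4 were at 22.6, 27, 18.4 and 15 CPM and naive libraries 5 to 8, labelled KO, at 9.81, 13.5, 18.9 and 6.65 CPM. The WT CFA libraries 9 to 12 were at 25.1, 5.65, 15.4 and 16.2 CPM, and the CFA libraries 13 to 16, labelled KO, at 17.5, 14.1, 15.2 and 22.1 CPM. The 3 lowest libraries, 10, 8 and 5, were those with low Tph2. En1 reads per Th read had a 3.58-fold range, from 0.266 to 0.952.

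Pitx3 (ENSMUSG00000025229.9; chromosome 19, 46135685 to 46148326, minus strand) encodes a homeobox factor that nigral dopamine neurons need to survive, and in adult brain it is largely restricted to dopamine neurons. It was close to the limit of counting, with 6 to 50 reads per library. WT naive libraries 1 to 4 were at 0.602, 0.634, 0.908 and 0.571 CPM, and naive libraries 5 to 8, labelled KO, at 0.299, 0.346, 0.497 and 0.209 CPM. These groups did not overlap, but the 95% Poisson interval of single libraries did: library 4 had 0.353 to 0.873 CPM and library 7 had 0.227 to 0.943 CPM, covering counting error only. WT CFA libraries 9 to 12 were at 0.706, 0.211, 0.466 and 0.529 CPM and CFA libraries 13 to 16, labelled KO, at 0.356, 0.303, 0.449 and 0.465 CPM, so the CFA groups overlapped. Pitx3 overlaps Elovl3 on the other strand, which makes its low counts uncertain.

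Foxa1 (ENSMUSG00000035451.6; chromosome 12, 57540628 to 57546916, minus strand) encodes a forkhead factor of dopamine neurons that subthalamic neurons also use. It was at 2.2 to 4.95 CPM in WT naive libraries, 2.55 to 4.19 CPM in naive libraries labelled KO, 2.25 to 6 CPM in WT CFA libraries and 2.69 to 3.49 CPM in CFA libraries labelled KO. Its highest libraries were 11 and 9, and its lowest were 4 and 10.

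**Figure D1:**
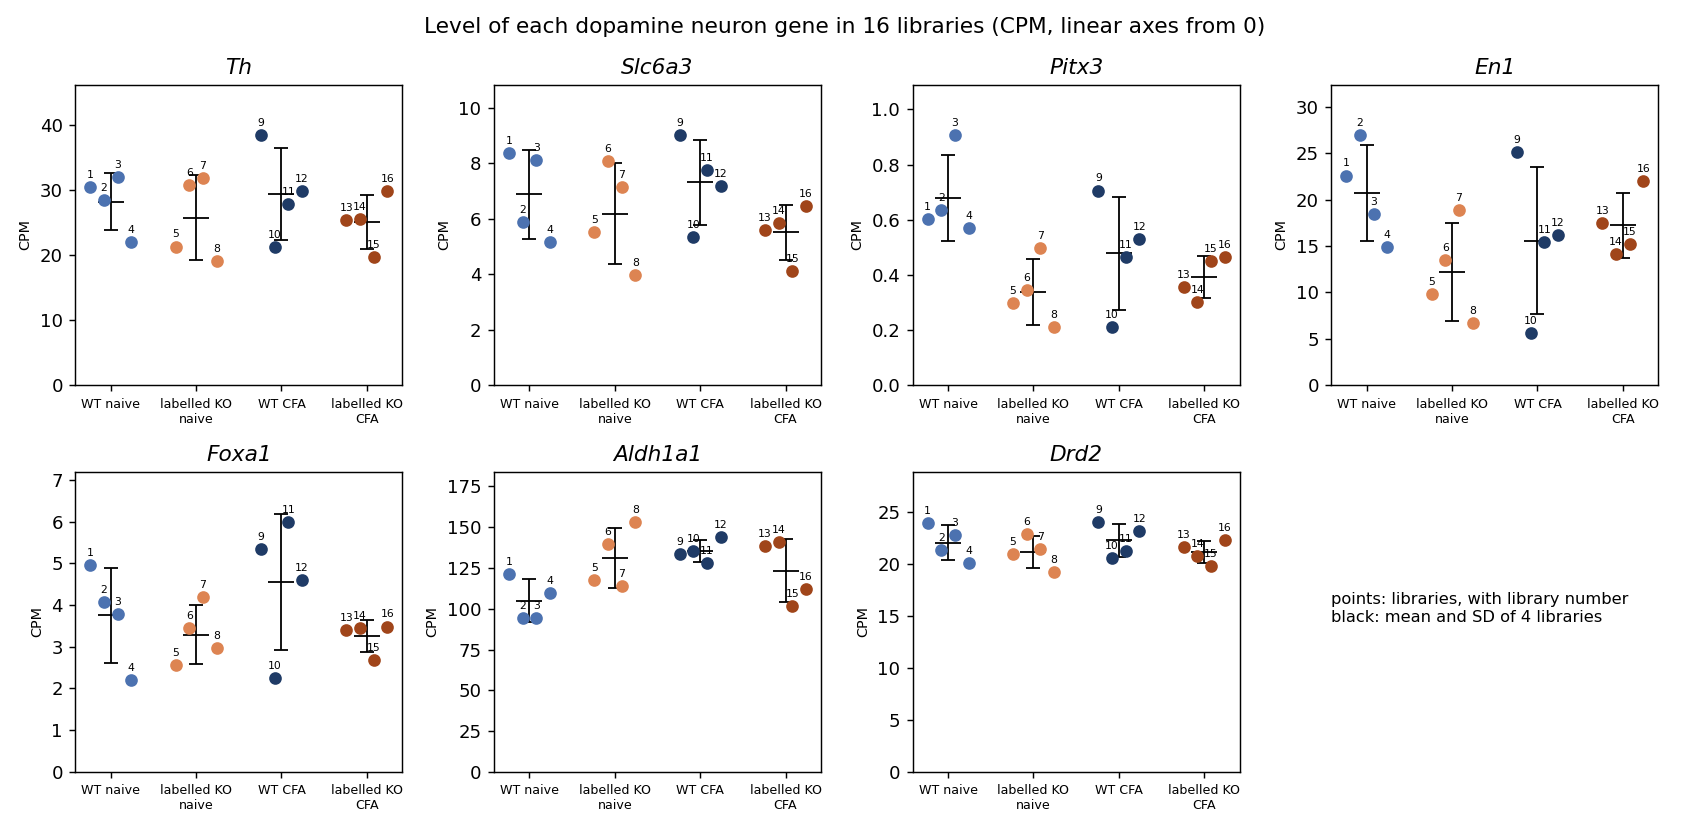
Level of the 7 dopamine neuron genes in CPM (linear axes from 0) in each of the 16 libraries, by group. Points are libraries with their numbers, and black bars are the mean and SD of 4 libraries. Th ran from 19 to 38.4 CPM with all 4 groups overlapping, while Pitx3 in WT naive libraries lay above the naive libraries labelled KO.

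Divided by exon length, as CPM per kilobase of exon (RPKM), the order of the medians was Aldh1a1 at 25.3, Th at 11.9, Drd2 at 8.41, En1 at 6.02, Slc6a3 at 1.78, Foxa1 at 1.04 and Pitx3 at 0.305. Each gene was above the next one in all 16 libraries, except Drd2, which was above En1 in 14 of 16. The serotonin gene Tph2 had a median of 104 RPKM and exceeded Th per length in every library, by 2.27-fold to 18.7-fold.

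Pools of the same group differed more in these genes than counting allows. The biological coefficient of variation in the edgeR fit was 20.5% for Th, 21.5% for Slc6a3, 38.7% for En1, 26.3% for Foxa1 and 12.1% for Aldh1a1, where counting alone would give 3.2%, 6.7%, 4.5%, 9% and 1.5%. For Drd2 it was 6%, against 3.6% from counting and a common value over all genes of 6.1%. Pitx3 had 19.3%, beside a counting error of 26.2%. The coefficient from the fit is the variation beyond counting, so for each gene it comes on top of the counting error. The within-group SD of log2 CPM was 0.31 for Th, against a median of 0.07 over the 500 genes nearest in level. For En1 it was 0.6, against 0.08. Tph2 was more variable than any of the 7 genes, with 0.81.

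The first question was whether libraries labelled KO differed from WT, and the second whether CFA libraries differed from naive ones. In edgeR's quasi-likelihood test with Benjamini-Hochberg adjustment over 18350 genes, 0 of 7 dopamine neuron genes were called at an adjusted p under 0.05 in any of the 4 comparisons or in the interaction of genotype and CFA. Over all genes the test called 1.45% for genotype in naive libraries, 1.6% for genotype after CFA, 2.23% for CFA in WT, 0.185% for CFA in libraries labelled KO and 0.0654% for the interaction, so 0 of 7 is near the background share in each. DESeq2 also called 0 of 7 in each. At an unadjusted p under 0.05, edgeR had 2 of 7 for genotype in naive libraries (13.8% of all genes), 0 of 7 for genotype after CFA (12.3%), 1 of 7 for CFA in WT (17.6%), 0 of 7 for CFA in libraries labelled KO (7.81%) and 1 of 7 for the interaction (9.86%).

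Th and Slc6a3 had wide intervals that included 1. For Th the fold of libraries labelled KO over WT was 0.894 (95% interval 0.648 to 1.23) in naive libraries and 0.862 (0.633 to 1.18) after CFA. The CFA fold of Th was 1.03 (0.762 to 1.41) in WT and 0.999 (0.722 to 1.38) in libraries labelled KO. For Slc6a3 the genotype fold was 0.879 (0.624 to 1.24) in naive libraries and 0.763 (0.55 to 1.06) after CFA. Without libraries 5, 8 and 10 the naive genotype estimate on the log2 scale turned from -0.16 to 0.14 for Th and from -0.19 to 0.15 for Slc6a3. The genotype estimate after CFA went from -0.21 to -0.34 for Th and from -0.39 to -0.51 for Slc6a3 (edgeR adjusted p = 0.443 and 0.205). A fold of Th inside these intervals could not be told from 1 with these pools. Drd2 was estimated more tightly, with every interval of its 4 folds between 0.87 and 1.1.

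Pitx3 and Aldh1a1 were the 2 genes at an unadjusted p under 0.05 in naive libraries. Pitx3 averaged 0.679 ± 0.155 CPM in the WT group against 0.338 ± 0.12 CPM in the group labelled KO (SD, n = 4 each), with a fold of 0.465 (0.29 to 0.745; edgeR adjusted p = 0.104). It was the 1 of 7 genes whose naive groups did not overlap, which held for 7.23% of all genes. Tph2 moved the same way, with a fold of 0.493 (0.221 to 1.1; edgeR adjusted p = 0.426), and En1 had a fold of 0.569 (0.307 to 1.05; edgeR adjusted p = 0.41). Without libraries 5, 8 and 10 the Pitx3 estimate went from -1.11 to -0.74 on the log2 scale (edgeR adjusted p = 0.575), and the part of serotonin neurons in it was not tested. Pitx3 also lies in a stretch of chromosome 19, from 35 to 50 Mb, where the same test called 14 of 153 genes by genotype in naive libraries, or 9.15% (1.45% of all genes), of which 4 were lower in libraries labelled KO. The stretch was chosen with earlier results of these same data known, so its share is only a description. The part of this stretch in the level of Pitx3 was not tested.

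Aldh1a1 was higher in naive libraries labelled KO than in WT, at 131 ± 18.5 against 105 ± 13.1 CPM, with a fold of 1.25 (1.04 to 1.51; edgeR adjusted p = 0.266). In WT it was at 135 ± 6.65 CPM after CFA, a fold of 1.29 (1.07 to 1.55; edgeR adjusted p = 0.144), and it was the 1 of 7 genes whose groups did not overlap in this comparison, as for 11.3% of all genes. For genotype after CFA and for CFA in libraries labelled KO, 0 of 7 genes had groups that did not overlap, against 8.03% and 4.29% of all genes. In libraries labelled KO the CFA fold was 0.944 (0.784 to 1.14), and the interaction was -0.45 on the log2 scale (SE 0.17, edgeR adjusted p = 0.426). The genotype comparison in naive libraries and the CFA comparison in WT share the 4 WT naive libraries, which had the lowest group mean. None of these adjusted p-values passed the threshold.

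**Figure D2:**
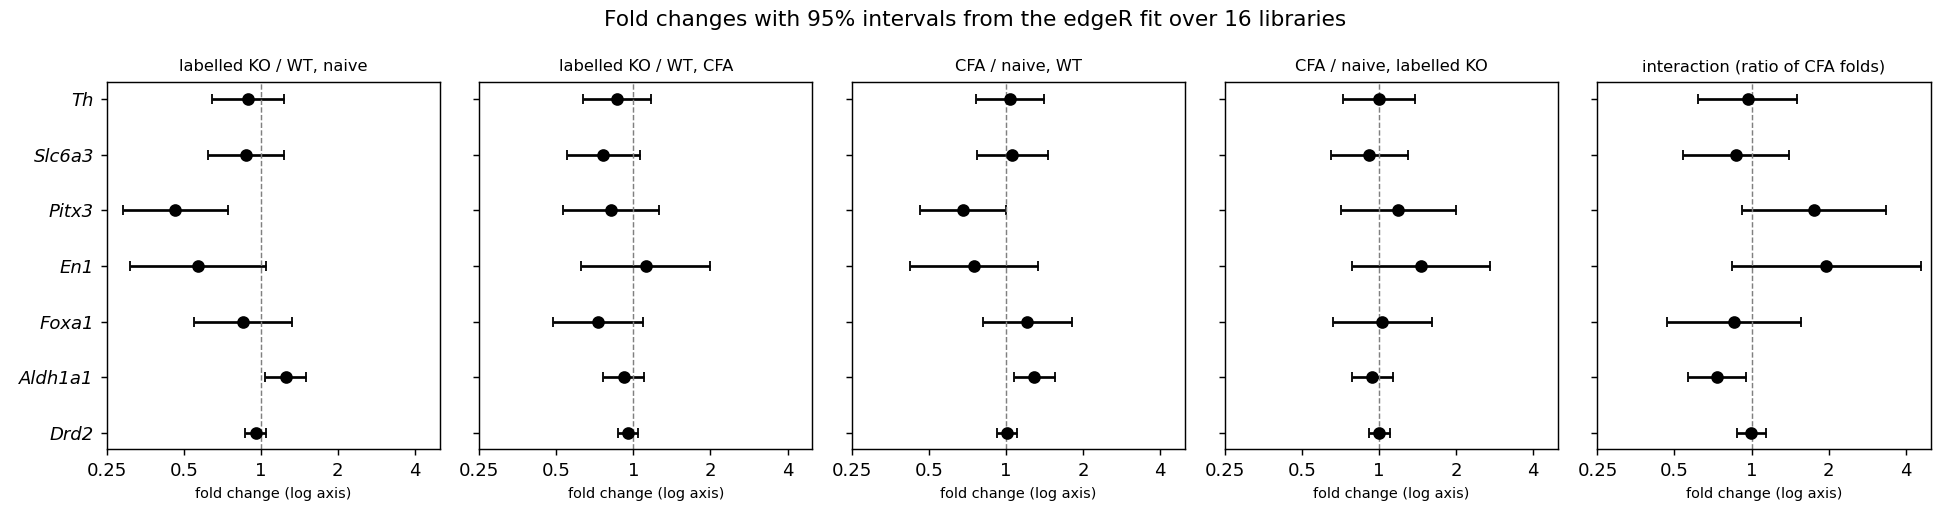
Fold change of each dopamine neuron gene in the 5 comparisons, with 95% intervals from the edgeR fit over 16 libraries (log axes, dashed line at no change). Intervals of Th, Slc6a3, En1, Foxa1 and Drd2 included 1 in all 5 panels, and those of Drd2 were the narrowest.

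Across the 16 libraries Th and Slc6a3 varied together. Pearson's r of their log2 CPM was 0.926 and Spearman's rho 0.926 (permutation p = 1e-05 for each, the smallest that 100000 resamples can give; adjusted p = 7e-05 over a family of 7 relations). With the 2 libraries farthest from the median of Th left out, r was 0.879, and on deviations from the group means it was 0.928 (adjusted p = 0.00035). Without the 3 libraries of low Tph2 it was 0.915. The level of Th had no relation to sequencing depth that passed the test (r = 0.028, rho = -0.018, permutation adjusted p = 0.917).

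Drd2 and Foxa1 followed the same pair. Over 21 relations among the 7 genes, with p-values adjusted over the 21, Th correlated with Drd2 (r = 0.889, rho = 0.876, permutation adjusted p = 0.00014) and with Foxa1 (r = 0.782, rho = 0.75, permutation adjusted p = 0.00168). With the 2 libraries farthest in Th left out, these were 0.826 and 0.795, and without the 3 libraries of low Tph2 they were 0.864 and 0.724. Drd2, the least variable gene, thus ranked the libraries much as Slc6a3 did (r = 0.908, rho = 0.906, permutation adjusted p = 0.000105; 0.854 with the 2 libraries farthest in Slc6a3 left out).

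En1 had the highest r with Tph2 of the 7 genes, and Pitx3 correlated with both Tph2 and Th. En1 against Tph2 gave r = 0.955 and rho = 0.865 (permutation adjusted p = 0.000201 over 321 relations), and 0.971 on deviations from the group means. With the 2 libraries farthest in Tph2 left out r was 0.877. Without the 3 libraries of low Tph2 it was 0.799, while En1 against Th went from 0.736 to 0.529. Pitx3 against Tph2 gave r = 0.776 and rho = 0.679 (permutation adjusted p = 0.00337), which went to 0.555 without the 2 libraries farthest in Tph2 and to 0.4 without those 3 libraries. Both leave-outs narrow the range of Tph2, which can by itself lower r with Tph2. Pitx3 against Th gave r = 0.679 and rho = 0.709 (permutation adjusted p = 0.0103 over the 21 relations; 0.669 with the 2 libraries farthest in Th left out), which went to 0.409 without the same 3 libraries, and its order against Tph2 differed between r and rho. Whether En1 was closer to Tph2 than to Th was not tested as a difference.

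Th itself correlated with Tph2 (r = 0.645, rho = 0.582, permutation p = 0.00571, adjusted p = 0.0133 over 7 relations). On deviations from the group means r was 0.86 (adjusted p = 0.00164), so pools of 1 group that were high in Tph2 were also high in Th. It was 0.632 with the 2 libraries farthest in Th left out. Without the 3 libraries of low Tph2 r was 0.291. These libraries were picked for low Tph2, so leaving them out narrows the range of Tph2 and can by that alone lower r. Slc6a3 against Tph2 was 0.48 (rho = 0.459, permutation adjusted p = 0.154 over 321 relations; 0.244 without the 2 libraries farthest in Tph2), and 0.752 on deviations from the group means (adjusted p = 0.0207). Reads of Th per Tph2 read had an 8.22-fold range, from 0.0439 to 0.361, with library 10 the highest.

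Aldh1a1 followed neither gene. Its r with Th was -0.087 (rho = -0.141, permutation adjusted p = 0.856) and with Slc6a3 -0.013 (rho = -0.029, permutation adjusted p = 0.961), or -0.059 and 0.06 with the 2 farthest libraries left out. With Pitx3 it was -0.633 (rho = -0.556, permutation adjusted p = 0.0166), and -0.526 with the 2 libraries farthest in Pitx3 left out. In 16 libraries the genes most like Aldh1a1 in a search made after its values were seen were Mpc2 (r = 0.959) and Pvalb (r = 0.95), the calcium buffer of fast-spiking neurons, which ran from 20.7 to 77 CPM.

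**Figure D3:**
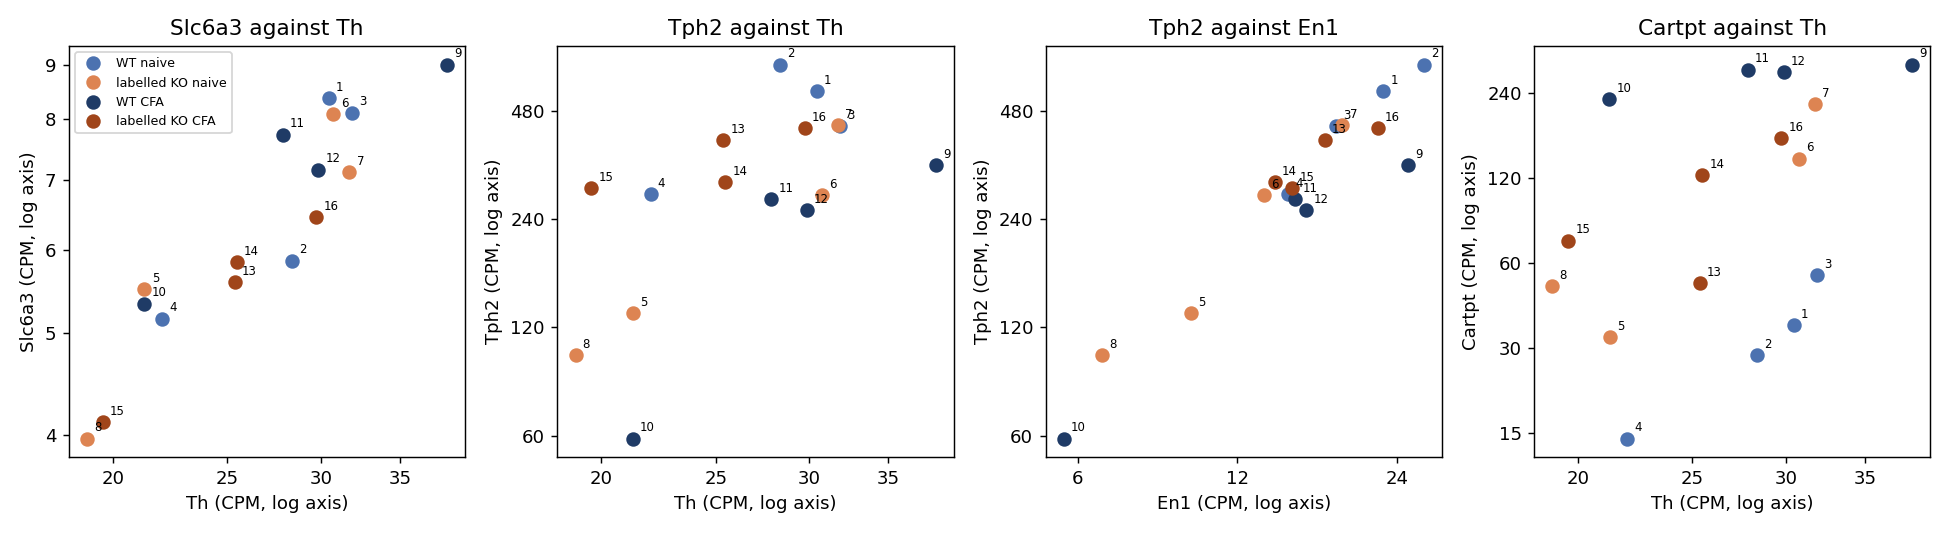
Levels of pairs of genes in the 16 libraries (CPM, log axes), numbered by library and coloured by group: Slc6a3 against Th, Tph2 against Th, Tph2 against En1 and Cartpt against Th. Slc6a3 and Th lie along 1 line (r = 0.926), and libraries 5, 8 and 10 lie apart at the low end of Tph2 and En1.

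The other fixed relations of Th were with single genes of neighbouring cell groups. Gata3, a factor of midbrain GABA neurons, correlated with Th (r = 0.697, rho = 0.724, permutation adjusted p = 0.0084; r = 0.718 on deviations from the group means). Its r with Tph2 was 0.744 (rho = 0.632, permutation adjusted p = 0.00872 over 321 relations). The other listed GABA genes did not all follow Th. Of 9 tested, 3 had an r with Th of at least 0.5 (5.36% of all genes) and 1 of -0.5 or below (4.84%). The median r of the 9 was -0.03. Cartpt, a peptide gene that is abundant in the Edinger-Westphal nucleus of the midbrain, did not pass the test over all libraries (r = 0.435, rho = 0.379, permutation adjusted p = 0.16; 0.429 with the 2 libraries farthest in Th left out) but did on deviations from the group means (r = 0.755, adjusted p = 0.00691). Its 4 WT CFA libraries were at 228 to 303 CPM whatever their Th, and the 4 WT naive libraries at 14.3 to 54.4 CPM. Prkcd of thalamic relay neurons (r = 0.281, rho = 0.065, permutation adjusted p = 0.41) did not pass. With the 2 libraries farthest in Th left out, r was 0.697 for Gata3 and 0.2 for Prkcd.

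The wider dopamine lists held genes closer to Th and genes closer to Tph2. Of 9 genes for synthesis, storage and breakdown of dopamine, 4 had an r with Th of at least 0.5, and these 4 were closer to Tph2. The vesicle transporter Slc18a2, the decarboxylase Ddc and Gch1, the first enzyme of the biopterin cofactor pathway, had r = 0.995, 0.992 and 0.995 with Tph2 and 0.689, 0.686 and 0.693 with Th. Maob, a monoamine oxidase, had 0.95 with Tph2 and 0.621 with Th. All 8 of these relations passed the permutation test, with adjusted p of 0.000201 for each with Tph2 and 0.0126 to 0.0383 for those with Th. Among 10 transcription factors, 7 reached 0.5 with Th, and among 14 other dopamine neuron genes 10 did, where 5.36% of all genes did. Among 7 tested genes of dopamine receptors and their signalling, 0 did. An r with Th of -0.5 or below was seen for 1 of the 10 transcription factors and 2 of the 7 receptor and signalling genes (4.84% of all genes). With Tph2, 5 of 9, 5 of 10, 8 of 14 and 0 of 7 genes of these 4 lists reached 0.5 (7.92% of all genes). Of the 7 receptor and signalling genes, 1 was at -0.5 or below with Tph2. Among the 7 dopamine neuron genes of this report 5 reached 0.5 too, with Aldh1a1 at -0.503 (-0.5 or below for 7.17% of all genes). These shares are descriptions, since the lists were chosen for dopamine neurons and the libraries share their composition.

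Some of these genes kept their relation to Th when the low-Tph2 libraries were left out. That choice narrows the range of Tph2, so a fall of r with Tph2 can come from the choice alone. The GDNF receptor Ret had r = 0.85 with Th over 16 libraries and 0.852 without the low-Tph2 libraries, while with Tph2 it had 0.326 and -0.096. The forkhead factor Foxa2 had 0.737 and 0.75 with Th, and 0.27 and -0.017 with Tph2. On deviations from the group means, however, Ret and Foxa2 had r = 0.848 and 0.798 with Tph2, so pools within a group varied in both sets of genes at once. Both genes also correlated with the Edinger-Westphal gene Cartpt, with r = 0.772 and rho = 0.759 for Ret (permutation adjusted p = 0.00532) and r = 0.766 and rho = 0.75 for Foxa2 (permutation adjusted p = 0.00337), which for Foxa2 is above its r with Th. The part of Edinger-Westphal neurons in these relations was not tested. Lmx1a, which specifies dopamine neurons, had 0.841 and 0.773 with Th, and Dlk1, a Notch-type surface protein, had 0.907 and 0.849. With Tph2, Lmx1a had 0.657 and 0.168, and Dlk1 had 0.756 and 0.443. On deviations from the group means Lmx1a had r = 0.853 with Tph2 and 0.824 with Th, and Dlk1 had 0.932 and 0.911. Lmx1b, which both dopamine and serotonin neurons need, had 0.987 with Tph2 and 0.707 with Th, and 0.948 and 0.45 without the 3 libraries. Nr4a2 (Nurr1), a factor that dopamine neurons need and that many forebrain neurons also make, had 0.105 with Th and -0.39 with Tph2. Over 16 libraries the permutation adjusted p with Th was 0.000292 for Ret, 0.00709 for Foxa2, 0.000494 for Lmx1a, 0.000401 for Dlk1, 0.0107 for Lmx1b and 0.822 for Nr4a2.

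**Figure D4:**
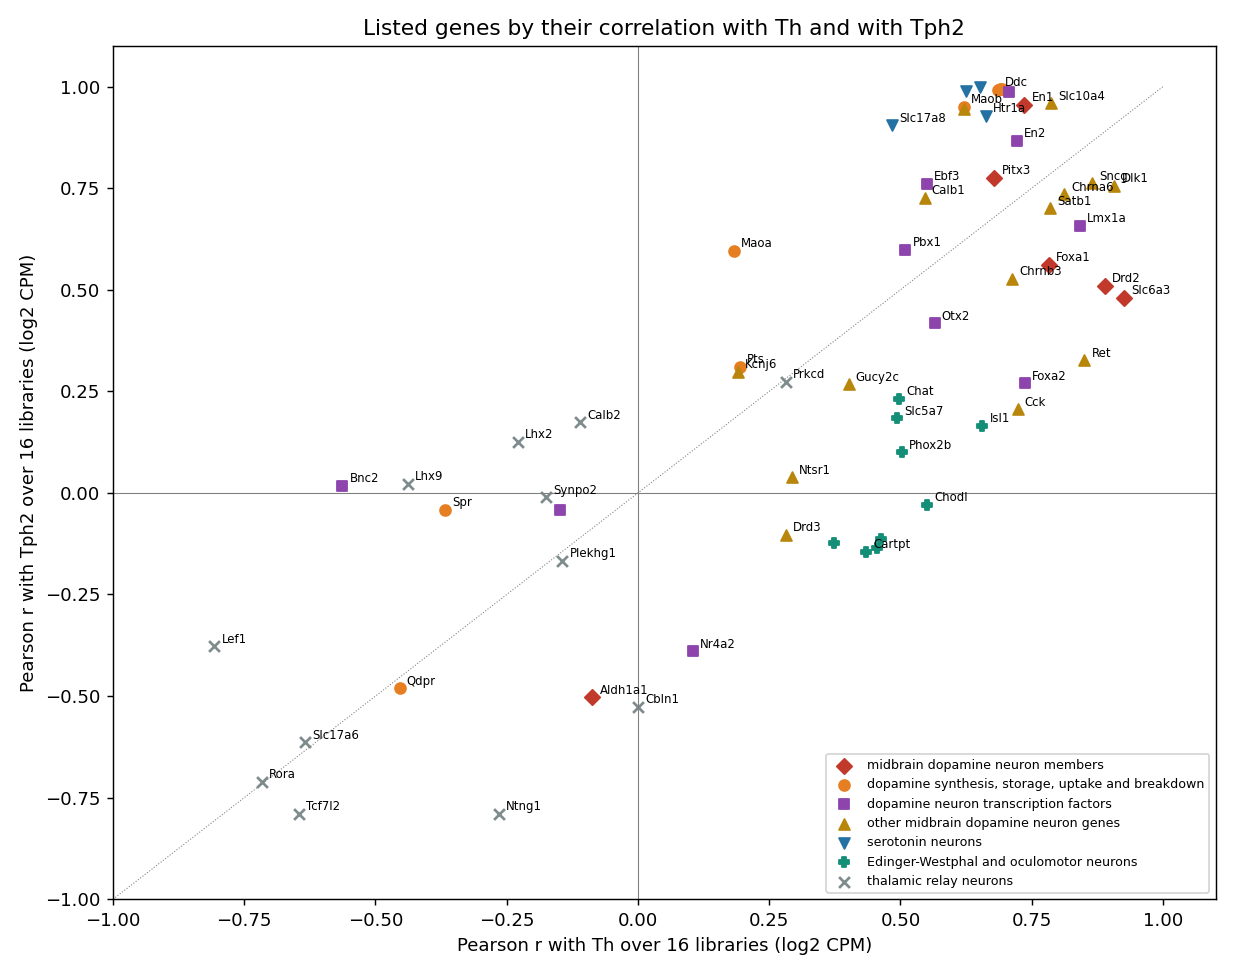
Pearson correlation of listed genes with Th (horizontal) and with Tph2 (vertical) over 16 libraries of log2 CPM, coloured by list (1 listed gene is not drawn), with points on the dotted line equally close to both. Slc6a3, Drd2, Ret and Foxa2 lie to the right and below that line, En1 and the shared monoamine genes Ddc, Slc18a2 and Gch1 (the last 2 unlabelled, at the top) lie above it, and Aldh1a1 lies apart from both groups.

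Between groups, few genes of the wider dopamine lists were called. Of 40 genes in the 4 lists together, 39 were tested, and edgeR called 0 of 39 for genotype in naive libraries, for genotype after CFA, for CFA in libraries labelled KO and for the interaction. For CFA in WT it called 1 of 39, where 2.23% of all genes were called. That gene was Maoa, a monoamine oxidase, which fell from 81.2 ± 4.66 to 72.2 ± 1.72 CPM (SD, n = 4 each; fold 0.889, edgeR adjusted p = 0.0274), and the call was lost when any 1 of libraries 2, 3, 10, 11 or 12 was left out (edgeR adjusted p = 0.052 to 0.0973), when libraries 5, 8 and 10 were (0.0591) and when libraries 2 and 4 were (0.266). At an unadjusted p under 0.05, edgeR had 3, 4, 7, 2 and 6 of the 39 in the order genotype in naive libraries, genotype after CFA, CFA in WT, CFA in libraries labelled KO and the interaction. Over all genes these shares were 13.8%, 12.3%, 17.6%, 7.81% and 9.86%. The median log2 change of the 39 lay between -0.08 and 0.07, where that of all genes was within 0.002 of 0.

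Among genes of these lists that came closest to a call, Nr4a2 was lower in CFA libraries labelled KO than in WT CFA libraries (fold 0.625, 0.48 to 0.814; edgeR adjusted p = 0.0813), with an interaction of -1.03 on the log2 scale (SE 0.26, edgeR adjusted p = 0.21). The peptide gene Cck, made by many ventral tegmental dopamine neurons, had a CFA fold in WT of 1.72 (1.21 to 2.45; edgeR adjusted p = 0.107) with no overlap. In that comparison edgeR called 5 of 9 Edinger-Westphal and oculomotor genes higher (2.23% of all genes in either direction), with a fold of 8.21 for Cartpt (3.31 to 20.4; edgeR adjusted p = 0.024). That list summed to 37.9 to 71.8 CPM in WT naive libraries and 302 to 453 CPM in WT CFA libraries. All 5 calls were lost without the 2 libraries with Dbh over 2 CPM, both WT naive (edgeR adjusted p = 0.162 to 0.283). The log2 changes of these 5 genes stayed positive there, at 1.457 to 2.602. Without the 3 libraries of low Tph2 the 5 calls were kept (edgeR adjusted p = 0.000542 to 0.0289). Cck correlated with Cartpt (r = 0.884, rho = 0.888, permutation adjusted p = 0.000201) as well as with Th (r = 0.723, rho = 0.659, permutation adjusted p = 0.0107), and the part of Edinger-Westphal neurons in its level was not tested.

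The genes whose pattern over the 16 libraries was most like the mean of Th and Slc6a3, among 14883 genes of at least 1 CPM on average, were Dnajc22 (r = 0.899), Ntn1 (0.877), Hcrtr1 (0.877), Dysf (0.869), Dlk1 (0.864), Pgf (0.863), Cacna1h (0.863), Shisal1 (0.858), Npy (0.844) and Ret (0.84). Of these, Dlk1 and Ret were on the dopamine lists. The least like were Rsrc1 (r = -0.87), Diras2 (-0.843), Hlf (-0.843), Galnt14 (-0.843) and Ctnnb1 (-0.835). Taken gene by gene, in a search made after the values were seen, En1 was most like the long noncoding RNA C130021I20Rik (r = 0.981) and Foxa1 most like Ttc6 (r = 0.911).

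The label of the punches was read against markers of thalamic relay neurons. Their 13 listed genes summed to 1020 to 1081 CPM in WT naive libraries, 1054 to 1178 CPM in naive libraries labelled KO, 1031 to 1146 CPM in WT CFA libraries and 1019 to 1182 CPM in CFA libraries labelled KO. The largest parts of these sums were the glutamate transporter Slc17a6 at 432 to 535 CPM and Calb2 at 185.5 to 212 CPM. Slc17a6 was also listed for ventral midbrain glutamate neurons, so the sums do not measure relay neurons alone. Of the 13 genes, Tcf7l2, which the thalamus shares with the midbrain roof, was at 110 to 179 CPM, Prkcd at 9.82 to 18 CPM and Gbx2, a thalamic homeobox gene, at 0 to 0.242 CPM. Against Th, 4 of 12 tested relay genes had an r of -0.5 or below, where 4.84% of all genes did. These were the Wnt-pathway factor Lef1 (r = -0.807), Rora (-0.716), Tcf7l2 (-0.646) and Slc17a6 (-0.634), with permutation adjusted p of 0.00195, 0.0107, 0.0305 and 0.0337. In the same order rho was -0.759, -0.703, -0.582 and -0.45 (permutation adjusted p = 0.00872, 0.0216, 0.077 and 0.206). Tcf7l2 and Slc17a6 thus did not pass on ranks. With the 2 libraries farthest in Th left out, r was -0.821, -0.619, -0.485 and -0.509. The median r of the 12 relay genes was -0.25 with Th and -0.27 with Tph2. With Tph2, 5 of the 12 had an r of -0.5 or below (7.17% of all genes). These were Tcf7l2 (r = -0.79), Ntng1 (-0.789), Rora (-0.711), Slc17a6 (-0.614) and Cbln1 (-0.527). In that order the permutation adjusted p was 0.000886, 0.00198, 0.0111, 0.0438 and 0.108. The 10 hypothalamic genes listed summed to 6.32 to 12.8 CPM, with Hcrt, Pmch, Avp and Oxt at most 0.272 CPM in any library, Agrp at 0.432 to 0.87 CPM and Pomc at 1.19 to 4.94 CPM. The 8 striatal genes listed summed to 233 to 291 CPM. Of these, Drd1 was at 1.29 to 2.96 CPM and Adora2a at 0.652 to 1.12 CPM, while Tac1 was at 77.2 to 106 CPM, Pde10a at 71.1 to 90.4 CPM, Rgs9 at 27.4 to 40.4 CPM, Foxp1 at 27.5 to 34 CPM and Ppp1r1b at 17.8 to 25.7 CPM. The levels of Th, Slc6a3, Pitx3 and En1 were above 0 in all 16 libraries, in both genotypes and under both treatments.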

How the data were processed

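Messenger RNA from 16 pools of punches was sequenced in 4 groups of 4, with library kits of the TruSeq RNA type, version 2, per the labels' protocols. The authors deposited 1 table per library with raw counts of reads for each Ensembl gene. TopHat, DESeq2 and the build mm10 are named in the submitters' processing notes, and the 5 closing lines of each table have the form that HTSeq writes. Those lines held 38% to 39.9% of listed reads and were left out. The sources used here name no annotation release and no strand setting. The labels give the sex as female and the protocol as male, and describe replicates as biological, so p-values measure the spread between pools. Replicates differed by more than counting noise (chi-square per degree of freedom 3.36 to 12.8), so none were merged.

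Symbols matched 37607 of 38924 IDs. Exon lengths and positions came from GENCODE M21 and promoters from RefSeq GRCm38.p6. In R 4.3.3, edgeR 4.0.16 (TMM, filterByExpr at a minimum count of 10, robust quasi-likelihood, 1 mean per group over 16 libraries) gave folds, SEs and two-sided p-values adjusted over 18350 genes, and a gene was called under 0.05. DESeq2 1.42.0 was an alternative, beside other scalings, filters, samples and leaving out each library. Correlations used log2 CPM with a prior count of 2 and two-sided permutation tests of 100000 resamples. On 16 simulated libraries of 18195 genes, changes were placed in the naive group labelled KO. Of 100 genes changed 1.5-fold 70.7% were recovered, and of 100 changed 2-fold 78%. The changed genes were drawn at random from all genes, where the common biological coefficient of variation was 6.1%. These shares therefore do not give the recovery of genes as variable as Th (20.5%) or En1 (38.7%). The dopamine genes, lists and relations were chosen with earlier results of these data known, and the leave-outs of low-Tph2 and Dbh libraries and the wider correlations were added after seeing the data. Named genes are the 7, list genes called or with the 4 lowest p-values per list (not all are named), the 10 most and 5 least like Th and Slc6a3, and Rgs4. Genes named only for a correlation were chosen after their values were seen. The values of 3 genes of the lists are not reported here.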

Additional observations from a re-analysis of the deposited data

Results flagged for a closer look

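Foxa1 in library 15, of the CFA group labelled KO, stood apart from the other 3 libraries of its group, with 2.69 CPM against 3.41 to 3.49 CPM. Its distance to the nearest of them was 0.901 of the group's whole range, above Dixon's 95% critical value for 4 samples. The same look was taken at 28 groups (7 genes in 4 groups each), and chance alone flags about 5% of such groups. Library 15 was also the lowest of its group for Th, Slc6a3, Aldh1a1 and Drd2, but not for En1 or Pitx3.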

How the results depend on the processing

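No paired analysis was possible because no replicate number is shared between groups. The count of dopamine neuron genes called was 0 of 7 in every comparison under every alternative run. Pitx3 did not pass the filter at a minimum count of 30 and has no value there. Of 555 alternative estimates for 35 effects, 510 kept their direction and 45 turned, all of effects that were not called. Leaving out libraries 5, 8 and 10 turned the log2 changes in naive genotype to 0.144 for Th, 0.146 for Slc6a3, 0.018 for Foxa1 and 0.012 for Drd2, that of genotype after CFA to -0.124 for En1, and those of CFA in libraries labelled KO to -0.113 for Pitx3, -0.204 for Foxa1 and -0.069 for Drd2. Leaving out libraries 2 and 4 turned CFA in WT to -0.093 for Th, -0.176 for Slc6a3 and -0.069 for Drd2, and the interaction to 0.09, 0.053 and 0.075 for these 3. With 1 library left out at a time, the effects that turned had log2 ranges of -0.104 to 0.179 for Th, -0.033 to 0.207 for Slc6a3 and -0.027 to 0.052 for Drd2 for CFA in WT, of -0.118 to 0.107 for Th, -0.284 to 0.034 for Slc6a3, -0.082 to 0.163 for Foxa1, -0.151 to 0.002 for Aldh1a1 and -0.038 to 0.045 for Drd2 for CFA in libraries labelled KO, of -0.18 to 0.102 for Th and -0.049 to 0.033 for Drd2 in the interaction, and of -0.125 to 0.483 for En1 in genotype after CFA. The cause was not tested. Of the relations of Th, that with Cartpt passed on deviations from the group means (r = 0.755), and that with total count turned to -0.131 there and to -0.303 without the 2 libraries farthest in Th. Over all genes, DESeq2 called 459, 465, 766, 87 and 90 genes in the 5 comparisons, where edgeR called 266, 294, 409, 34 and 12. Low depth limits Pitx3 most, with as few as 6 reads in a library.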
